A study of Homo sapiens with 8 samples.

Results

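The 8 genes TCP1, CCT2, CCT3, CCT4, CCT5, CCT6A, CCT7 and CCT8 encode the subunits of CCT (also called TRiC), the chaperonin of the cytosol. They were chosen by name, as the full set of somatic subunits of the complex, and are 8 of the 19964 genes with a coding transcript in the deposited counts. The question was whether the subunits had like amounts of ribosomes for their mRNA, and whether that balance shifted after arsenite. HEK293T cells, a human embryonic kidney line that carries the SV40 large T antigen, received 40 µM sodium arsenite or vehicle (control) for 30 min. Each treatment was profiled by ribo-seq, which reads the mRNA fragments covered by ribosomes, and by mRNA-seq of randomly fragmented poly(A) RNA from the same lysates, in 2 independent biological replicates, so that 8 libraries were made in 4 groups of 2. All samples were of 1 established cell line and both treatments shared the same handling, with cycloheximide present in the wash and no pretreatment with it.

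CCT is a barrel of stacked rings in which every ring holds each of the different subunits at a fixed place, in the order TCP1, CCT4, CCT2, CCT5, CCT7, CCT8, CCT6A and CCT3. It closes over newly made proteins and uses ATP to fold them, with actin and tubulin as its best known clients. Prefoldin hands unfolded clients to CCT, and phosducin-like proteins act as its cofactors. Because the assembled ring needs its subunits in equal number, CCT is a usual example of a complex whose members are made in matched amounts.

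Depth differed between the replicates. Counting 1 transcript per gene, there were 1023767 to 7267975 reads in the ribo-seq libraries and 3986231 to 21672980 in the mRNA-seq libraries, with replicate 1 the shallower in every group. All 5 HEK293 marker genes looked for (PAX2, LHX1, NEFL, NEFM and INA) had reads in all 4 mRNA-seq libraries, at a sum of 136 to 237 CPM (counts scaled by library size). The 6 markers of other cell types summed to 1.34 to 2.01 CPM. Of these the defining T cell gene CD3E and the erythroid gene HBB were at 0 in all 4. The leukocyte gene PTPRC (0.50 to 0.77 CPM) and the endothelial gene PECAM1 (0.55 to 1.03 CPM) had reads in all 4. Most of the HEK293 sum came from NEFL, NEFM and INA, while PAX2 and LHX1 lay between 1.51 and 3.74 CPM. In such bulk samples fewer expressing cells and less RNA per cell cannot be told apart. CCT mRNAs were abundant and well covered. The 8 subunits together took 0.843% to 1.17% of all ribo-seq reads on coding sequences (CDS) and 0.707% to 0.833% of those of mRNA-seq. Every subunit passed the filter of a mean of 10 counts in both assays, and the smallest CDS count of any of them was the 398 ribo-seq reads of CCT6A in arsenite replicate 1.

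The 8 mRNA levels stayed close to those in control. TCP1, the founding subunit of the family, had 528 and 526 CPM in the control replicates and 534 and 526 CPM after arsenite in mRNA-seq. CCT6A, a subunit that touches its own copy in the opposite ring, had 359 and 358 CPM in control and a little more, 363 and 364 CPM, after arsenite. For CCT5, a subunit that can form rings on its own, the values were 1079 and 573 CPM in control and 1086 and 597 CPM after arsenite, so that the replicates differed more than the treatments did. Control and arsenite overlapped in all subunits but CCT6A. How often the groups separate over all genes was not counted for mRNA-seq, so nothing is read from this. CCT3 had 1313 and 878 CPM in control against 1401 and 930 CPM after arsenite, CCT7 had 1062 and 666 against 1064 and 690, and CCT8 had 703 and 538 against 725 and 563. The levels of CCT2 (641 and 521 CPM in control, 593 and 541 after arsenite) and CCT4 (849 and 729, then 840 and 728) also differed more between replicates than between treatments.

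None of the 8 subunits passed the test for a change in RNA level. The log2 changes, estimated with edgeR's quasi-likelihood test with the replicate as a block, ran from -0.02 for CCT2 to 0.09 for CCT3 (SE 0.05 for each of the 2), and the lowest Benjamini-Hochberg adjusted p was 0.322, for CCT3. Over all 12572 genes 5.45% were called. The count of members with an unadjusted p under 0.05 was also 0, where 18.3% of all genes had one, and DESeq2 called 0 of the 8 and 5.67% of the genes it gave an adjusted p. The 95% intervals of all 8 lay between -0.12 and 0.18 on the log2 scale. Their median was 0.02 and that of all genes -0.01. Changes here and below are relative to the bulk of mRNAs, since the libraries were scaled to each other by their common genes, so a change of 0 is that of a subunit that moved with the bulk, whatever the bulk did.

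Ribosome occupancy, the ribo-seq reads on the CDS, varied far more than the RNA. CCT5 had 2192 and 989 CPM in the control replicates and 3496 and 968 CPM after arsenite. The arsenite library of replicate 1 was thus well above the other 3, while in replicate 2 the level of CCT5 hardly moved. CCT3 had the same form, with 2124 and 1522 CPM in control and 2841 and 1514 CPM after arsenite. TCP1 had 710 and 892 CPM in control and 938 and 782 CPM after arsenite, higher in replicate 1 and lower in replicate 2.

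The other 5 subunits were lower after arsenite in replicate 1, and all of them but CCT8 also in replicate 2. CCT2, the other subunit with a like partner in the facing ring, had 1026 and 956 CPM in control and 847 and 818 CPM after arsenite. CCT4, which like CCT5 can assemble alone, had 1375 and 1262 CPM against 1074 and 1134 CPM. For CCT6A the values were 506 and 454 CPM in control and 424 and 365 CPM after arsenite. In CCT2, CCT4 and CCT6A, 3 of the 8, both arsenite libraries lay below both control libraries. The same held for 13.2% of the 10291 genes tested, and in either direction the groups did not overlap in 26.0%. CCT7 had 2230 and 1398 CPM in control and 1766 and 1279 CPM after arsenite, and CCT8 had 1739 and 820 against 1246 and 825, so that in these 2 genes the groups overlapped.

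No subunit passed the test for ribosome occupancy either. The edgeR log2 changes ran from -0.29 (SE 0.18, 95% interval -0.65 to 0.08) for CCT6A to 0.32 (SE 0.20, 95% interval -0.08 to 0.73) for CCT5, with adjusted p of 0.433 and 0.418. Of all 10291 genes 2.92% were called. An unadjusted p under 0.05 was found in 0 of the 8 members and 17.7% of all genes, and DESeq2 called 0 of the 8, against 1.70% of the genes it gave an adjusted p. The median over the members was -0.23, and over all genes -0.00. In log2 terms the 2 replicates gave 0.67 and -0.03 for CCT5, 0.42 and -0.01 for CCT3, and 0.40 and -0.19 for TCP1, and their signs agreed in 4 of the 8 subunits (CCT2, CCT4, CCT6A and CCT7, all negative).

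Translation efficiency (TE) is the ribo-seq signal relative to mRNA-seq of the same gene, and its change is the difference between the changes of both assays. The count of members called for a change of TE was 0 of 8 by edgeR, against 2.28% of 10273 genes. It was also 0 at an unadjusted p under 0.05 (21.3% of all genes) and by DESeq2 (1.74% of the genes it gave an adjusted p). CCT6A came nearest, at a log2 change of -0.31 (SE 0.15, 95% interval -0.64 to 0.02, edgeR unadjusted p = 0.0637, adjusted p = 0.265). CCT5 had the highest estimate, 0.28 (SE 0.21, 95% interval -0.18 to 0.75, adjusted p = 0.460), followed by CCT3 at 0.11 and TCP1 at 0.09. CCT8, CCT7, CCT4 and CCT2 lay together at -0.29, -0.26, -0.25 and -0.22. The members' median was -0.24 and that of all genes -0.01. The 95% intervals of all 8 included 0, and the width of each leaves a shift of either sign possible at this number of replicates.

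**Figure D1:**
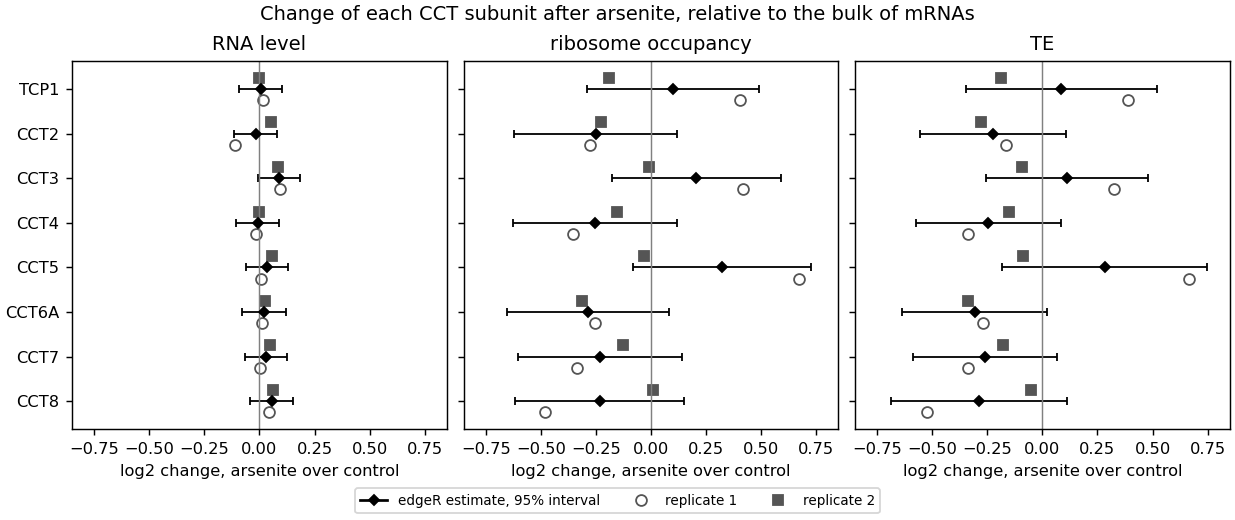
Log2 changes of the 8 subunits after arsenite relative to the bulk of mRNAs, for RNA level, ribosome occupancy and TE, with the edgeR estimate and its 95% interval (diamonds and bars) and the value within replicate 1 (circles) and replicate 2 (squares). RNA changes lie between -0.11 and 0.09 in both replicates, while the TE changes of replicate 1 run from -0.52 (CCT8) to 0.67 (CCT5) and those of replicate 2 from -0.34 (CCT6A) to -0.05 (CCT8).

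The split of the subunits into higher and lower TE came from replicate 1. In that replicate TCP1, CCT3 and CCT5 had positive TE changes of 0.39, 0.33 and 0.67 and the other 5 negative ones, with CCT8 the lowest at -0.52. In replicate 2, the deeper one, all 8 subunits had negative changes within a narrow range, from -0.34 for CCT6A to -0.05 for CCT8, and TCP1, CCT3 and CCT5 were at -0.19, -0.09 and -0.09. The SD over the 8 subunits was 0.430 in replicate 1 and 0.0974 in replicate 2. Across the 8 subunits the Pearson correlation of the TE changes between replicates was 0.236 and the Spearman correlation -0.119, values that describe these points only, as the subunits share each library. By the Z-score of the methods, which compares a gene with 300 genes of like read count, no subunit passed 4 in RNA level, occupancy or TE in either replicate. Few genes did, from 4 of 9927 for occupancy in replicate 1 to 22 of 14595 for RNA level in replicate 2, so a count of 0 of 8 says little about the subunits. Their highest value was 1.76, that of CCT5 for TE in replicate 1.

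The stoichiometry of the complex can be read as the share of each subunit among the CDS reads of all 8. These shares depend on CDS length, so only their change between treatments is compared. In mRNA-seq the largest change of any share was 1.05 percentage points (CCT3 in replicate 1, from 21.0% to 22.0%), and in replicate 2 the changes ran from -0.53 to 0.58 points. In ribo-seq of replicate 1 the share of CCT5 went from 18.4% (95% Wilson interval 17.9% to 19.0%) to 27.7% (26.9% to 28.5%), CCT7 from 18.7% to 14.0%, and CCT8 from 14.6% to 9.87%. These are steps well past the counting error, which is all that such an interval covers. In ribo-seq of replicate 2 the same 3 subunits went from 11.9% to 12.6%, from 16.9% to 16.6% and from 9.88% to 10.7%, and no share moved by more than 1.34 points. CCT3 was the only subunit whose share was higher after arsenite in both replicates of both assays, in ribo-seq by 4.64 and 1.34 points, and CCT2, CCT4, CCT6A and CCT7 had lower ribo-seq shares in both replicates.

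**Figure D2:**
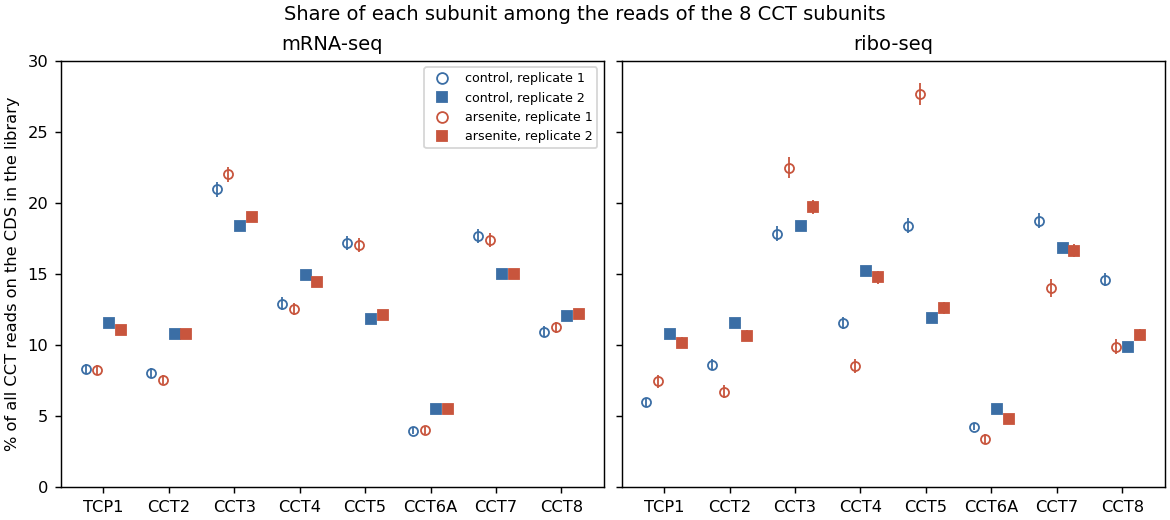
Share of each subunit among the CDS reads of the 8 CCT genes in each library (%, with 95% Wilson intervals), for mRNA-seq on the left and ribo-seq on the right, in control (blue) and arsenite (red), replicate 1 as circles and replicate 2 as squares. Treatments nearly coincide in mRNA-seq and in ribo-seq of replicate 2, and part in ribo-seq of replicate 1, where CCT5 reaches 27.7%.

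Within a library the ribosomes followed the mRNA across the complex. Over the 8 subunits, log2 CDS reads of mRNA-seq and ribo-seq had a Pearson correlation of 0.942 and 0.969 in the control replicates and of 0.936 and 0.990 after arsenite. Both assays share the CDS length of each gene, which alone makes long genes high in both, so these values are a description.

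TE itself does not depend on length, as CDS reads stand above and below the ratio, and all 8 subunits lay above the bulk of mRNAs in every library pair. In control the edgeR estimates of log2 TE ran from 0.32 for TCP1 to 0.74 for CCT7, with a median of 0.66 against 0.00 for all genes. Of the 8, CCT7 (0.74, SE 0.18, adjusted p = 0.0195), CCT2 (0.72, SE 0.19, adjusted p = 0.0244) and CCT6A (0.66, SE 0.20, adjusted p = 0.0364) passed the edgeR test as higher than the bulk. That is 3 of 8, where 31.1% of 10260 genes were called and 13.4% were called higher. A further 4 subunits had an unadjusted p under 0.05 (CCT3, CCT4, CCT5 and CCT8, adjusted p from 0.0514 to 0.112), as did 43.8% of all genes, and TCP1 did not (0.32, SE 0.20, adjusted p = 0.256). DESeq2 called 5 of the 8 and 32.1% of all genes. The count of 3 depended on the fit, from 0 of 8 without the replicate as a block to 8 of 8 with mRNA-seq reads over the whole transcript.

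**Figure D3:**
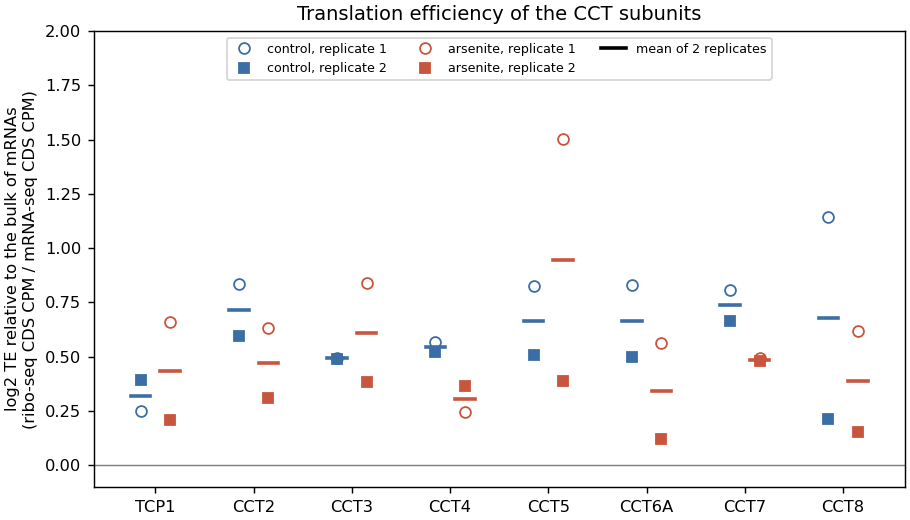
Log2 TE of each subunit relative to the bulk of mRNAs (ribo-seq CDS CPM over mRNA-seq CDS CPM), in control (blue) and arsenite (red), with replicate 1 as circles, replicate 2 as squares and the mean of the 2 as a line. All values are above 0, and CCT8 in control and CCT5 in arsenite have the widest gaps between replicates.

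The order of the subunits by control TE was poorly reproduced between the replicates. Across the subunits the Pearson correlation of control TE between replicates was -0.175 and the Spearman correlation 0.048. By the mean of the replicates CCT7 came first with a log2 TE of 0.81 and 0.67, followed by CCT2 with 0.84 and 0.59. CCT8 had 1.14 and 0.21, CCT5 0.83 and 0.51, and CCT6A 0.83 and 0.50. CCT4 had 0.57 and 0.52, CCT3 0.49 and 0.49, and TCP1 0.25 and 0.39. Of the 7 neighbouring pairs in this order, 2 were separated, in that both replicates of CCT4 lay above both of CCT3, and both of CCT3 above both of TCP1. Of all 28 pairs 13 were separated, and TCP1 lay below every other subunit but CCT8 in this sense.

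After arsenite fewer pairs were separated in this sense, and the correlations of TE between replicates were 0.175 (Pearson) and 0.143 (Spearman). CCT5 came first with 1.51 and 0.39, and CCT4 last with 0.25 and 0.36. Between them CCT3 had 0.84 and 0.38, CCT7 0.49 and 0.48, and CCT2 0.63 and 0.31. TCP1, CCT8 and CCT6A had 0.66 and 0.21, 0.62 and 0.15, and 0.56 and 0.12. No neighbours were separated and 3 of 28 pairs were, all with CCT4 as the lower subunit. CCT7 above CCT4 was the 1 pair that was separated in both treatments. This measure does not pair the replicates. Within replicates, 17 of 28 pairs had the same order in both replicates after arsenite and 15 of 28 in control, and of the 7 neighbours 3 and 2 did. CCT5 then lay above every other subunit but CCT7 after arsenite, though above CCT3 by 0.390 against 0.383 in replicate 2. The order of 5 pairs was the same in both replicates of both treatments. Unrelated orders would also agree in part of the pairs, so these counts alone do not show a reproducible order. By edgeR, CCT5 alone passed the test of TE in arsenite (0.98, SE 0.29, adjusted p = 0.0378), where 29.4% of genes were called and 12.9% called higher, and this estimate joins the 1.51 of replicate 1 with the 0.39 of replicate 2. An unadjusted p under 0.05 was found in 4 of the 8 and 43.0% of all genes. The median of the 8 edgeR estimates was 0.46, and -0.00 for all genes. Arsenite TE was higher in replicate 1 for 7 of the 8 subunits, the exception being CCT4.

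The spread of TE over the CCT subunits was set beside that of other complexes. The SD of log2 TE over the subunits, averaged over the replicates, was 0.204 ± 0.097 (SD, n = 2) in control and 0.248 ± 0.170 in arsenite. In the 6 subunits of the MCM helicase, which unwinds DNA at replication origins, it was 0.320 and 0.302, and in the 14 subunits of the 20S proteasome, the barrel that degrades proteins, 0.396 and 0.512. In replicate 2 the CCT values were 0.135 and 0.128, below the values of both complexes in either replicate. In replicate 1 they were 0.273 and 0.368, above those of MCM (0.250 and 0.287). The spread of the TE change was 0.264 for CCT, 0.142 for MCM and 0.313 for the proteasome. With 2 replicates no exact test of these spreads can go below p = 0.333, and none was made. A control TE above the bulk was not particular to CCT. All 6 MCM genes and all 14 proteasome genes also had edgeR estimates above 0, with medians of 0.93 and 0.72. For prefoldin it was 5 of 6 genes, with a median of 0.34.

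**Figure D4:**
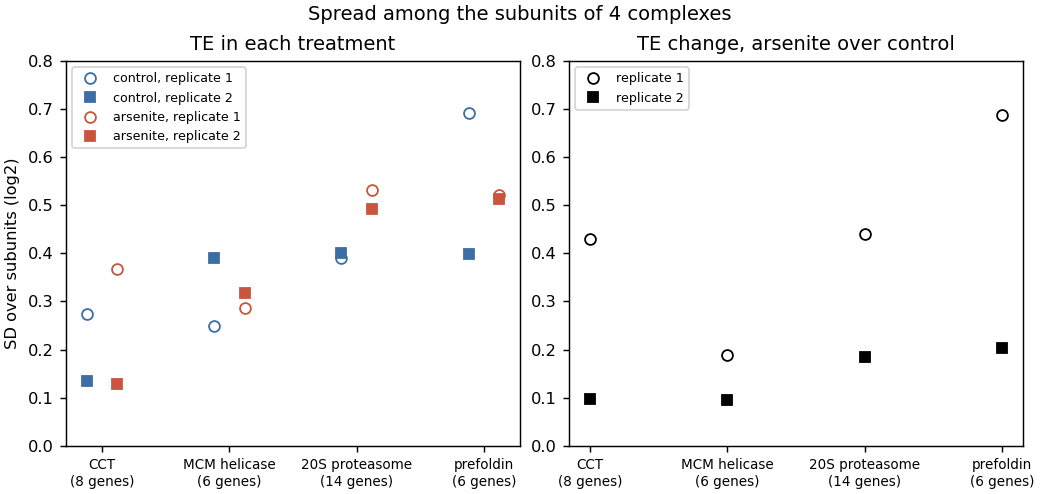
SD over subunits of log2 TE in each treatment (left) and of its change (right) for CCT, the MCM helicase, the 20S proteasome and prefoldin, with replicate 1 as circles and replicate 2 as squares. CCT is lowest in replicate 2 for TE (0.135 and 0.128), and its TE change has an SD of 0.430 in replicate 1 and 0.0974 in replicate 2.

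Ribosomes on the CCT mRNAs were almost all on the CDS. In ribo-seq, 5 of 20604 CCT reads lay in the 5′ leader in control replicate 1 and 103 of 63869 in replicate 2, or 0.0243% and 0.161%, against 0.384% and 0.765% over all genes. After arsenite it was 5 of 11867 and 102 of 25181 reads, or 0.0421% and 0.405%, against 0.477% and 1.46%. The leader share in replicate 2 was thus higher after arsenite in the CCT genes and in all genes alike. CCT4 held the largest number of these reads, with 59 in control and 49 in arsenite of replicate 2, which was 0.604% (95% Wilson interval 0.469% to 0.779%) and 1.31% (0.990% to 1.72%) of its ribo-seq reads. CCT2, CCT6A and CCT7 had at most 4 leader reads in any library and CCT5 at most 5. In mRNA-seq 90.6% and 83.8% of CCT reads fell on the CDS in the control replicates, against 69.2% and 58.6% over all genes, the lowest subunit being CCT6A at 65.2% and 61.2%. The median control TE of the 8 was 0.66 with CDS reads in both assays and 1.15 with mRNA-seq reads over the whole transcript.

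CCT6A has near-identical pseudogene copies in the genome, and reads that matched more than 1 gene were discarded, so its counts are uncertain. The copies CCT6P1 and CCT6P3 had 37 and 87 mRNA-seq reads in control replicate 2 and 46 and 128 in arsenite replicate 2, against 7168 and 8136 for CCT6A, and at most 2 ribo-seq reads each in any library. How many CCT6A reads were lost in this way was not tested.

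Of the partners of CCT, PFDN5 alone was called in RNA level. PFDN5, a prefoldin subunit, had 725 and 4504 mRNA-seq reads in control and 621 and 4364 after arsenite, and fell by 0.21 on the log2 scale (SE 0.05, edgeR adjusted p = 0.00532), which is 1 of 6 prefoldin genes beside 5.45% of all genes. That call was lost with DESeq2 (adjusted p = 0.256) and when only CDS reads were counted in mRNA-seq (edgeR adjusted p = 0.0730). For occupancy and TE 0 of 6 were called, and the prefoldin gene with most mRNA-seq reads, VBP1, had log2 changes of -0.13, 0.05 and 0.17 in RNA, occupancy and TE. Of the 7 relatives of CCT, 6 were tested for RNA and 5 for occupancy and TE with 0 called, among them the mitochondrial chaperonin HSPD1 (TE change -0.37, adjusted p = 0.157) and its partner HSPE1 (-0.42, adjusted p = 0.216). The phosducin-like cofactors had 0 of 3 called in each of the 3 measures, with TE changes of -0.13 for PDCL and -0.04 for TXNDC9.

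The 18 known clients of CCT, which include actins, tubulins and WD-repeat proteins, were all tested, and 4 of 18 were called in RNA level, 2 in occupancy and 1 in TE change, beside 5.45%, 2.92% and 2.28% of all genes. The mRNAs of ACTB (beta-actin) rose by a log2 change of 0.22 (SE 0.05, adjusted p = 0.00123), of TUBB (a beta-tubulin) by 0.17 (SE 0.05, adjusted p = 0.0131) and of CDC20, the activator of the anaphase-promoting complex, by 0.16 (SE 0.05, adjusted p = 0.0489), while CCNE1 (cyclin E) fell by 0.28 (SE 0.08, adjusted p = 0.0168), all by edgeR. The changes of CDC20 were 0.05 and 0.22 in the replicates and those of CCNE1 -0.05 and -0.32, so that both rest on replicate 2. The calls of CDC20 and TUBB were lost with DESeq2 (adjusted p = 0.477 and 0.0535). When only CDS reads were counted all 4 were lost, ACTB, CCNE1, CDC20 and TUBB (edgeR adjusted p = 0.0606, 0.208, 0.177 and 0.146). That of CDC20 was also lost with upper-quartile normalization and with no filter on low counts (edgeR adjusted p = 0.0733 and 0.0660). The other actin, ACTG1, had a change of 0.10 (adjusted p = 0.274). In ribosome occupancy GNB1, a G protein beta subunit, fell by 0.78 (SE 0.18, adjusted p = 0.0238) and TUBB2A rose by 1.09 (SE 0.28, adjusted p = 0.0355). GNB1 was also the client called for TE, where it fell by 0.80 (SE 0.17, adjusted p = 0.0428), with 360 and 2816 ribo-seq reads in control and 128 and 629 after arsenite. The occupancy call of GNB1 was lost with DESeq2 (adjusted p = 0.101) and its TE call with upper-quartile normalization (edgeR adjusted p = 0.0590). TUBB2A rests on 30 and 172 ribo-seq reads in control and 57 and 114 after arsenite, or log2 changes of 1.80 and 0.65, and its call was lost when footprints of the whole transcript were counted (edgeR adjusted p = 0.0526). Actin and tubulin genes share long stretches with their paralogs, so their counts are uncertain. The median TE change of the clients was -0.29, beside -0.24 for the CCT subunits and -0.01 for all genes.

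Likeness over the 8 libraries was taken after each gene's mean log2 CPM within each assay was subtracted, so levels were not compared. By this measure the genes most like the mean of the CCT subunits were PPP6R3, MLLT4, ATG7, KARS and XPNPEP1. Their root mean square distance was 0.0302 to 0.0510 on the log2 scale, where the median over 5383 genes compared was 0.307. The single subunits were farther from their own mean than these genes, from 0.130 for CCT7 (rank 309) to 0.441 for CCT5 (rank 4049). Because these genes were picked as the nearest of all compared, that difference says little about the subunits.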

How the data were processed

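Each of the 8 libraries was deposited by the authors as a table of raw counts per RefSeq transcript (47087 transcripts). Counts of the 35851 coding transcripts are given by region, as leader, CDS and 3′ UTR. The authors removed adapters with cutadapt, set aside spike-in and rRNA reads, aligned the rest with Bowtie 1.0.0 to the RefSeq transcripts on the sense strand, discarded reads matching more than 1 gene, placed footprints at the ribosomal A-site, and added up the runs of replicate 2. No genome build was named, so no coordinates are given, and with CDS lengths not used here densities per length were not compared between subunits.

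Each gene was represented by the coding transcript whose CDS held the most control ribo-seq reads, both replicates added. For all 8 subunits it also had the most mRNA-seq reads. They were the transcripts NM_030752 (TCP1), NM_006431 (CCT2), NM_005998 (CCT3), NM_006430 (CCT4), NM_012073 (CCT5), NM_001762 (CCT6A), NM_006429 (CCT7) and NM_006585 (CCT8).

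Genes averaging 10 counts or more were tested together with edgeR 4.0.16 (R 4.3.3; quasi-likelihood F test, TMM, two-sided, Benjamini-Hochberg adjustment, threshold 0.05). RNA level used transcript reads of mRNA-seq, occupancy used CDS reads of ribo-seq, and TE change was their interaction with the replicate nested in assay. TE in a treatment compared CDS reads of both assays, with a replicate term shared by them. The replicate was a block because the methods give the replicates different adapters, sequencing and scaling, and because libraries of the same replicate deviated together (correlation of deviations 0.795 over 7382 genes in ribo-seq and 0.874 over 10875 in mRNA-seq). A prior count of 0.5 was added for values within replicates. TMM removes any change common to all mRNAs, and spike-in scaling was not used. DESeq2 1.42.0 was an alternative. Python 3.11.15, pandas 2.3.3, numpy 2.4.6, scipy 1.17.1 and matplotlib 3.10.9 were used. The tests were run on simulated counts with changes larger than those estimated for the subunits. That check does not cover the power to find changes of the size seen here.

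The subunits and the lists of partners, clients and other complexes were chosen with earlier results of these data known. Of these lists the genes named are those past the threshold in RNA level, occupancy or TE change and the 2 with most mRNA-seq reads per list, and the 5 genes most like the subunits' mean had to average 100 counts or more in both assays. Intervals on shares are 95% Wilson intervals and cover counting error only.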

Additional observations from a re-analysis of the deposited data

How the results depend on the processing

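The counts of CCT subunits called for RNA level, ribosome occupancy and TE change were 0 of 8 by edgeR and under every alternative run. These included DESeq2, upper-quartile normalization, no filter on low counts, a mean of at least 50 counts, other read regions and another rule for the transcript. That rule chose the same transcript for all 8 subunits, so their own counts could not change under it. Over the alternatives the adjusted p of the subunits ranged from 0.260 to 1.00, from 0.345 to 1.00 and from 0.242 to 1.00. The count for control TE was 3 by edgeR and was 5 with DESeq2, 5 without a filter, 2 with a mean of at least 50 counts, 7 with the replicate block nested in assay, which takes the difference in TE between replicates out of the error, and 8 with mRNA-seq reads over the whole transcript. With no replicate block it was 0, and the genes called over the whole table went from 685 to 0 for RNA, from 301 to 0 for occupancy, from 234 to 0 for TE change and from 3190 to 832 for control TE, so the calls rest on the pairing of the libraries by replicate.

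Over all genes the calls also ranged, with the replicate block kept, from 91 (DESeq2) to 780 (mean of at least 50 counts) for RNA, from 53 (DESeq2) to 577 (mean of at least 50 counts) for occupancy, from 0 (block shared by both assays) to 808 (no filter) for TE change, and from 2051 (mean of at least 50 counts) to 6018 (nested block) for control TE. With a replicate left out, TCP1, CCT3, CCT5, VBP1, PDCL, TXNDC9 and ACTG1 had TE changes of either sign, depending on the replicate. The same genes and CCT8 had occupancy changes of either sign, and TCP1, CCT2, HSPE1 and GNB1 had such RNA changes. None of these changes was called in the main fit. Under the other alternatives, too, signs turned only in changes that were not called. In RNA these were TCP1 with upper-quartile normalization (-0.0022) and CDS reads alone (-0.010), CCT2 with CDS reads alone (0.00089), HSPE1 with DESeq2 (0.042), and GNB1 with upper-quartile normalization (-0.0050) and no replicate block (-0.0041). In occupancy TXNDC9 turned with DESeq2 (0.044), upper-quartile normalization (0.0030) and no replicate block (0.057). In TE PDCL turned with no replicate block (0.069) and the shared block (0.0090), and TXNDC9 with DESeq2 (0.067), no replicate block (0.11) and the shared block (0.11). The cause was not tested. Leaving out a replicate leaves 1 library per group and no test, and the spread of TE over the subunits was then 0.135 to 0.273 in control and 0.128 to 0.368 in arsenite. The planned spread of reads per CDS length was not run, as CDS lengths were not used here. Replicate 1 had fewer reads in every group, and with 1 library per group and replicate its part in the difference between replicates was not tested.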
